A study of Homo sapiens with 12 samples.

Results

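The genes described here are SGK1 and its relatives SGK2 and SGK3, the 3 subunit genes of the epithelial sodium channel (SCNN1A, SCNN1B and SCNN1G), the ubiquitin ligase gene NEDD4L and NDRG1. They are 8 of the 60645 gene names counted, and were found by exact name in the tables of all 12 libraries. SGK1 was picked because it had risen under EWS-FLI1 in these libraries. For these 8 genes, values for EWS-FLI1 against the empty vector are therefore given as a description, without a p-value, and tests are given for the comparisons between forms of ARID1A. For other genes both kinds of comparison were tested.

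PolyA RNA was sequenced from HEK-293T, a human embryonic kidney line. All 6 groups were an ARID1A knockout of this line and held 2 libraries each. ARID1A is a subunit of the SWI/SNF (BAF) chromatin remodeller, and EWS-FLI1 is the Ewing sarcoma fusion that joins part of EWSR1 to the DNA-binding part of FLI1. The knockout cells overexpressed an empty vector (no ARID1A), full ARID1A (WT) or ARID1A without its segment IDR1b (ΔIDR1b), and in each of these states either a second empty vector or EWS-FLI1. The labels give 2 µg of EWS-FLI1 plasmid and a further 48 h of growth, with no other agent. The stated question was what IDR1b contributes to gene regulation by EWS-FLI1. The series text names a single knockout line, so other knockout clones were not analysed here. The labels do not say that the repeats were separate cultures, so p-values measure the spread between these libraries, which may be technical.

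SGK1 is a serine/threonine kinase of the AGC family whose transcript is induced by serum, glucocorticoids and mineralocorticoids, and whose activity depends on phosphorylation by mTORC2 and PDK1 downstream of PI3K. In the distal nephron of the kidney, SGK1 phosphorylates NEDD4L, a ubiquitin ligase that otherwise binds the sodium channel and marks it for removal from the cell surface. Aldosterone acts on sodium uptake in part through this kinase. NDRG1 is a further substrate of SGK1, and its transcript is known for its induction by hypoxia.

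The DNA-binding part of FLI1 recognises GGAA, so the sequence upstream of the SGK1 start sites is shown first. RefSeq (GRCh38.p14) gave promoter windows for 3 of the 8 genes, SGK1, SCNN1B and NEDD4L. SGK1 lies on the minus strand of chromosome 6, from 134169248 to 134318112 in the deposited GRCh38 annotation. It had 3 start sites with 250 bases upstream at chr6:134318113-134318362, chr6:134177862-134178111 and chr6:134174867-134175116. They are written 5′ to 3′ on the gene's strand, from the most upstream start to the most downstream. Capitals mark GGAA on either strand, which here reads TTCC at every match.
SGK1 upstream start: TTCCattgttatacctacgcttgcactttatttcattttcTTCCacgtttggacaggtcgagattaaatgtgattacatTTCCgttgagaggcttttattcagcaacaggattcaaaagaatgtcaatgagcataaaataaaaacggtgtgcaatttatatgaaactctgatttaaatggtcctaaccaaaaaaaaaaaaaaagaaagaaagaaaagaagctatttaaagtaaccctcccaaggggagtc
SGK1 middle start: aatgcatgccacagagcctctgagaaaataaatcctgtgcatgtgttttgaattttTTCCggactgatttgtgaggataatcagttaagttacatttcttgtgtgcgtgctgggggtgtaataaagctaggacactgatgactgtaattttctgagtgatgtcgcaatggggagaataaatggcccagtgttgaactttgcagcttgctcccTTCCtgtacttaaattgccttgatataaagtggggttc
SGK1 downstream start: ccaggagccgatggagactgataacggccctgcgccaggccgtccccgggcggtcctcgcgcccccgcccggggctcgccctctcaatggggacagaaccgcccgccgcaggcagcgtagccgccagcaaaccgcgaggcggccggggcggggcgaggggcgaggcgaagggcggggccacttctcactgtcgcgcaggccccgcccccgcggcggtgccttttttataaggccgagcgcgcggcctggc
The window of the upstream start held 3 matches, that of the middle start 2, and that of the downstream start, with 76% G and C, held 0. GGAA on either strand was present in 92.7% of all 35116 windows of 250 bases, with a median of 3 matches. The tandem GGAAGGAA, searched on both strands and counted within GGAA too, was in 3.06% of all windows and in none of those of SGK1. The consensus palindrome of the glucocorticoid response element, also searched on both strands, was in 0.00285% of all windows (1 window) and in none of SGK1. In the 5 windows of NEDD4L the number of GGAA matches was 3 to 6, and the window of SCNN1B held 1. The counts per gene do not show which start site the SGK1 counts came from.

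The libraries held 11702251 to 14445379 counts. Levels are given in CPM, the count of a gene relative to library sizes scaled with TMM (trimmed mean of M-values). ARID1A had a mean of 156 CPM (SD 12.1, n = 2) without ARID1A under the empty vector and 160 CPM (SD 3.68) under EWS-FLI1. In WT it stood at 2056 CPM (SD 25.8) under the empty vector and 2067 CPM (SD 317) under EWS-FLI1. In ΔIDR1b the means were 2787 CPM (SD 130) and 2615 CPM (SD 9.03). ARID1A was thus higher in ΔIDR1b than in WT, with no overlap between libraries. The part of this in differences between WT and ΔIDR1b was not tested. FLI1 had 0 to 3 counts per group under the empty vector. Under EWS-FLI1 it stood at 1759 CPM (SD 100) without ARID1A, 3568 CPM (SD 151) in WT and 1897 CPM (SD 13.2) in ΔIDR1b, so the fusion was unevenly expressed between the states. Of 8 HEK-293T markers, 7 were present at 6.46 CPM or more on average and NEFM had 2 counts in all. Of the markers of the collecting duct principal cell, which carries the sodium channel in the kidney, AQP2 had 3 counts and FXYD4 5 over the 12 libraries. AVPR2, the vasopressin receptor of these cells, had 28, and AQP3, HSD11B2 and GATA3 averaged 3.88 to 11.6 CPM. In bulk RNA, fewer expressing cells and less RNA per cell cannot be told apart.

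SGK1 stood higher under EWS-FLI1 in all 3 states. In cells without ARID1A the libraries stood at 7.43 and 7.93 CPM under the empty vector and at 20.3 and 20.8 CPM under EWS-FLI1. In WT they stood at 7.22 and 10.3 CPM under the empty vector and at 29.4 and 24.9 CPM under EWS-FLI1. In ΔIDR1b they stood at 5.63 and 4.29 CPM under the empty vector and at 15.1 and 17.5 CPM under EWS-FLI1. The lowest library under EWS-FLI1 was thus above the highest under the empty vector across all states, and the 12 libraries held 60 to 390 SGK1 counts each. The group means, with n = 2 and SD, were 7.68 ± 0.349, 8.76 ± 2.19 and 4.96 ± 0.948 CPM under the empty vector for no ARID1A, WT and ΔIDR1b. Under EWS-FLI1 they were 20.6 ± 0.380, 27.1 ± 3.12 and 16.3 ± 1.73 CPM. The fitted rise was 2.67-fold without ARID1A (log2 1.42, SE 0.20), 3.10-fold in WT (1.63, SE 0.19) and 3.28-fold in ΔIDR1b (1.72, SE 0.21). Averaged over the states it was 3.01-fold (log2 1.59, SE 0.12). The WT rise was 1.40 without WT empty-vector repeat 1 and 1.91 without repeat 2, the libraries at 7.22 and 10.3 CPM.

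**Figure D1:**
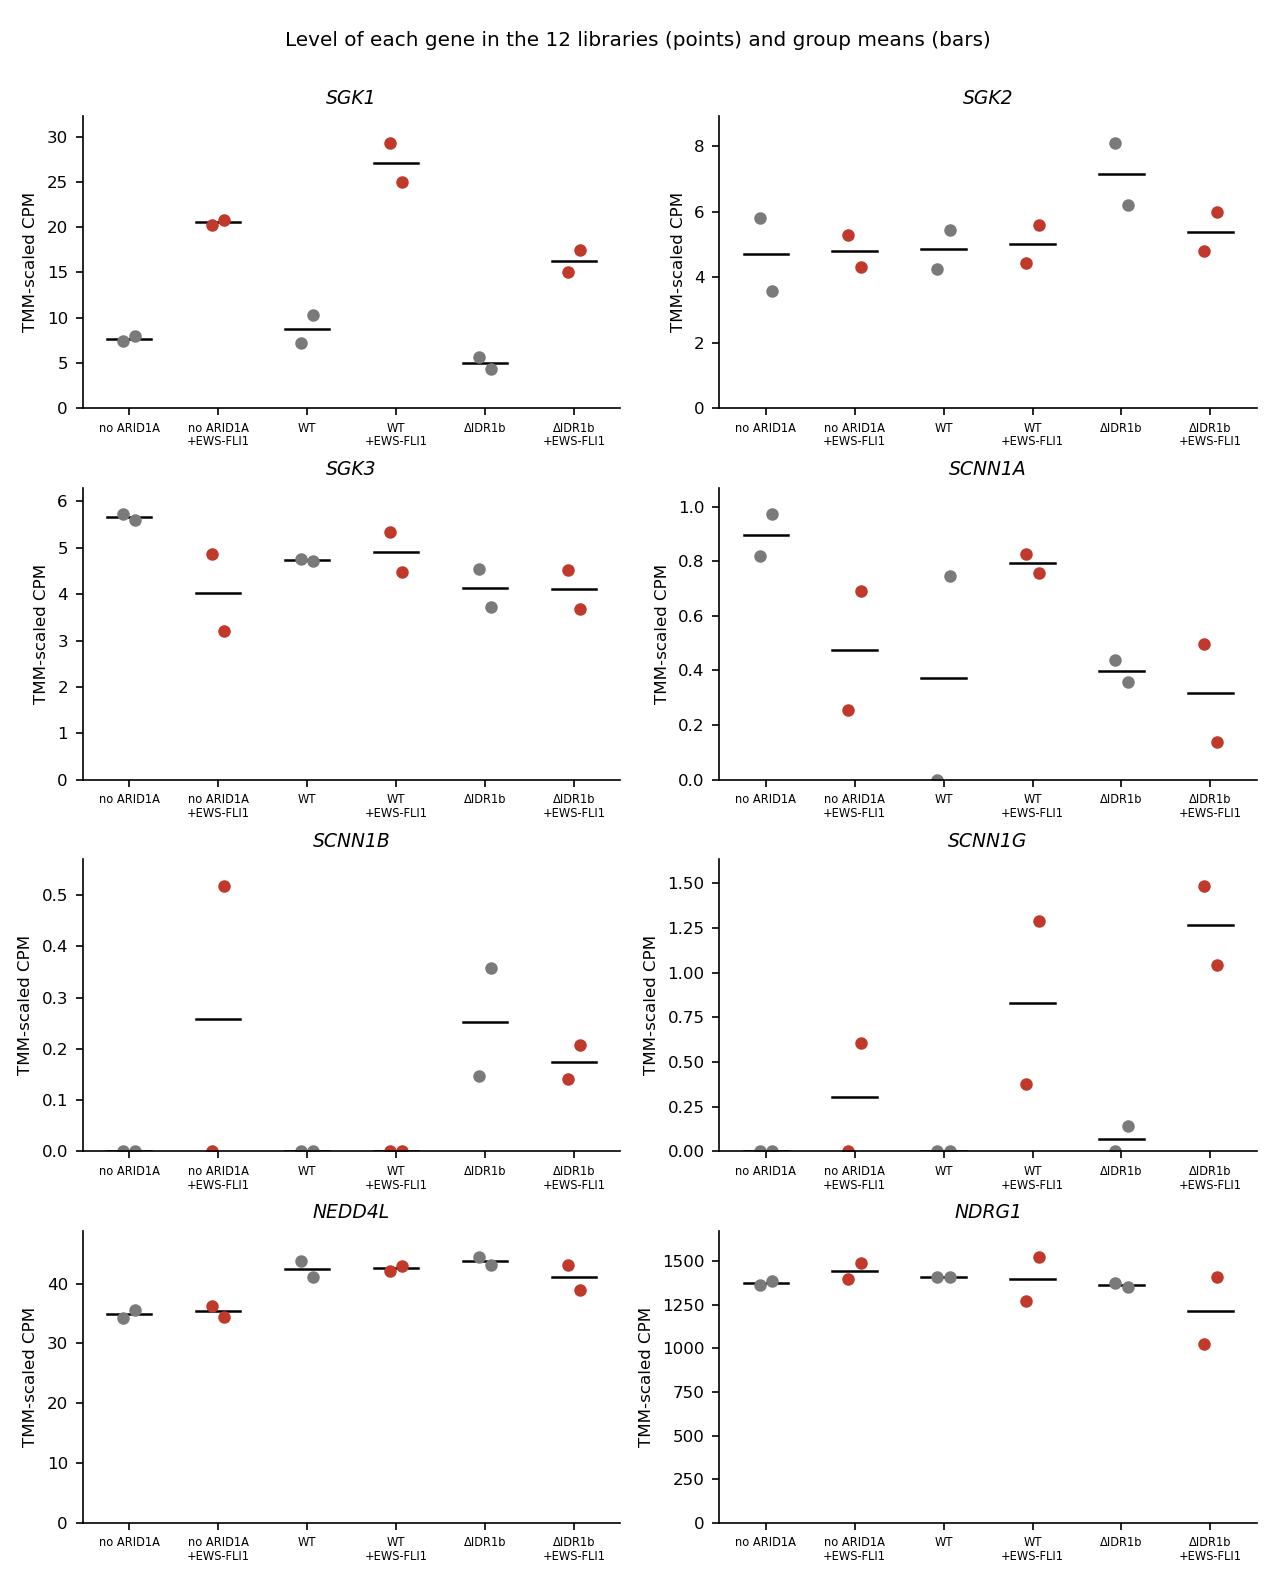
Level of each of the 8 genes in TMM-scaled CPM (vertical axes, each from 0) in the 12 libraries (points; grey, empty vector; red, EWS-FLI1), with group means as bars over 2 libraries. SGK1 stands between 4.29 and 10.3 CPM in the grey points and between 15.1 and 29.4 CPM in the red ones, while NEDD4L and NDRG1 show no such step between the vectors.

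Of all 20377 genes tested, 0.0442% were called for EWS-FLI1 without ARID1A, 0.221% in WT and 0.172% in ΔIDR1b, at an adjusted p under 0.05 by edgeR's quasi-likelihood test. In the average over states it was 0.466%. Because SGK1 was chosen on these contrasts, no call of the 8 genes is given for them. The neighbours of SGK1 on chromosome 6, the glucose transporter gene SLC2A12 and ALDH8A1, whose starts lie 181667 and 748145 bases away, were not called: their average log2 differences were 0.25 (SE 0.12, adjusted p = 0.625) and 0.08 (SE 0.19, adjusted p = 0.959, both by edgeR).

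The rise of SGK1 did not differ detectably between the ARID1A states. The difference in the log2 rise was 0.21 for WT against no ARID1A (SE 0.28, 95% interval -0.36 to 0.78). It was 0.30 for ΔIDR1b against no ARID1A (SE 0.29, -0.30 to 0.89) and 0.09 for ΔIDR1b against WT (SE 0.28, -0.49 to 0.66). SGK1 was chosen on the rises compared here, so no p-value is given for these differences. FLI1 under EWS-FLI1 stood at 3568 CPM in WT, 1759 CPM without ARID1A and 1897 CPM in ΔIDR1b. Its part in these differences was not tested. With 2 libraries per group, differences within these intervals were not excluded. None of the 7 members tested was called in an interaction by edgeR or DESeq2, and 0 had an unadjusted p under 0.05 in edgeR's test. SGK1 was chosen on its rise, and SCNN1G passed the low-count filter through its EWS-FLI1 libraries. The missing calls of these genes therefore decide nothing. SCNN1G had 0 counts under the empty vector without ARID1A and in WT. Its difference in rise between these states could not be estimated (95% interval -5001 to 5004). For ΔIDR1b its interval was -7.42 to 2.38 against WT and -4.26 to 2.10 against no ARID1A. Over all genes tested, 0.0245%, 0.0196% and 0.00% were called in these 3 comparisons. For SGK1 the first difference was -0.02 without WT empty-vector repeat 1. Its last one was between -0.20 and -0.03 without WT empty-vector repeat 2, WT EWS-FLI1 repeat 2, ΔIDR1b empty-vector repeat 2 or ΔIDR1b EWS-FLI1 repeat 2.

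SGK1 was lower with ΔIDR1b than in the other states when the cells carried the empty vector. The 2 ΔIDR1b libraries, at 5.63 and 4.29 CPM, lay below all 4 libraries of the other states, at 7.22 to 10.3 CPM. Against no ARID1A the log2 difference was -0.63 (SE 0.22, adjusted p = 0.0277, edgeR), or 0.646 times the level. Against WT it was -0.82 (SE 0.22, adjusted p = 0.00597, edgeR), or 0.566 times the level. Under EWS-FLI1, SGK1 was again lower in ΔIDR1b than in WT, with a log2 difference of -0.74 (SE 0.18, adjusted p = 0.00462, edgeR), with no overlap between the libraries. Against no ARID1A the EWS-FLI1 libraries of ΔIDR1b did not overlap either, but the difference of -0.33 did not pass (SE 0.19, adjusted p = 0.166, edgeR). FLI1 itself, and so the fusion, was higher in WT than in ΔIDR1b, and its part in the difference under EWS-FLI1 was not tested.

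These calls rested on few libraries. The difference between ΔIDR1b and no ARID1A under the empty vector had adjusted p = 0.0704 without no-ARID1A repeat 1, 0.131 without no-ARID1A repeat 2 and 0.266 without ΔIDR1b repeat 2, by edgeR. That between ΔIDR1b and WT had adjusted p = 0.168 without WT repeat 2 and 0.118 without ΔIDR1b repeat 2, by edgeR. Under EWS-FLI1 it had adjusted p = 0.0797 without ΔIDR1b repeat 1, by edgeR. In each of these fits SGK1 was still lower in ΔIDR1b, with log2 differences of -0.45 to -0.68.

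Full ARID1A did not change SGK1 past the threshold. Under the empty vector the log2 difference between WT and no ARID1A was 0.19 (SE 0.21, adjusted p = 0.617, edgeR), the libraries overlapped, and the difference was -0.08 without WT repeat 2. Under EWS-FLI1 both WT libraries, at 24.9 and 29.4 CPM, were above those without ARID1A, at 20.3 and 20.8 CPM. That difference of 0.40 did not pass (SE 0.18, 95% interval 0.03 to 0.77, adjusted p = 0.128, edgeR), and FLI1 was also higher in WT.

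**Figure D2:**
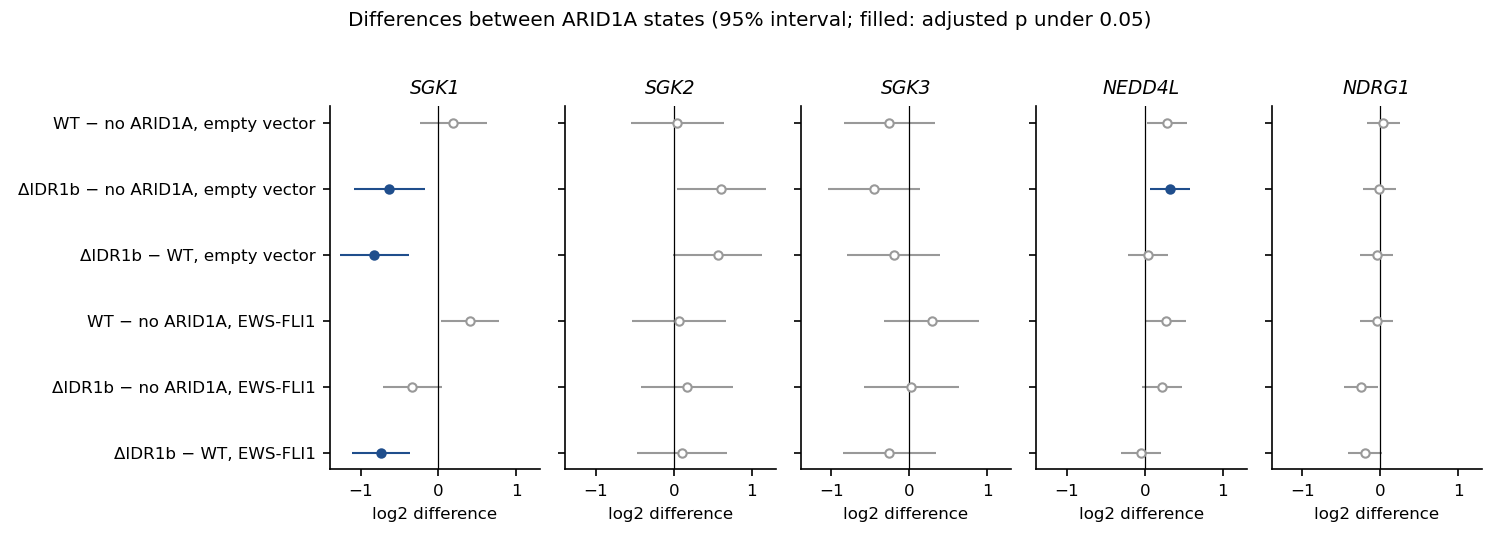
Log2 difference between ARID1A states (horizontal axes) for the 5 members with at least 3 CPM in every library, with 95% intervals from the edgeR fit, the upper 3 rows under the empty vector and the lower 3 under EWS-FLI1. Filled points passed an adjusted p of 0.05: SGK1 in 3 comparisons, from -0.63 to -0.82, and NEDD4L in 1, at 0.32.

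By Pearson's r of log2 CPM over the 12 libraries, the genes most like SGK1 were EWSR1 (r = 0.968), ENSG00000215835 (r = 0.929) and FLI1 (r = 0.912). EWSR1 and FLI1 both count reads of the transfected fusion. The libraries fall into 2 sets by vector, and these values carry that separation.

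SGK2 and SGK3, the relatives of SGK1, were low in all groups and gave no call. SGK2 (chromosome 20, 43558968 to 43588237, plus strand) is a kinase best known from liver and kidney. Its libraries ranged from 3.59 to 8.11 CPM, with 48 to 111 counts each. It was highest in ΔIDR1b under the empty vector, at 8.11 and 6.22 CPM, against 5.80 and 3.59 CPM without ARID1A and 4.24 and 5.45 CPM in WT. The log2 differences of 0.61 against no ARID1A (SE 0.28, adjusted p = 0.0961) and 0.56 against WT (SE 0.28, adjusted p = 0.146) did not pass edgeR's test. Without no-ARID1A repeat 1 the first was 0.99 (adjusted p = 0.0392, edgeR).

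SGK3 has a lipid-binding PX domain that places it on endosomes. It lies on the plus strand of chromosome 8, from 66712734 to 66862022. The 12 libraries held 37 to 77 counts, or 3.20 to 5.72 CPM. It was highest without ARID1A and under the empty vector, at 5.72 and 5.61 CPM, and lowest under EWS-FLI1 in the same state, at 4.86 and 3.20 CPM. No comparison between ARID1A states was called for SGK3, and its log2 differences ran from -0.46 to 0.28. Of its exonic bases, 44% are shared with the readthrough gene C8orf44-SGK3 (4 counts in all), and fragments over both genes were not counted, so its level may be understated. Between EWS-FLI1 and the empty vector the fitted log2 differences of SGK2 and SGK3 ran from -0.49 to 0.05 over the 3 states, against 1.42 to 1.72 for SGK1.

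The 3 sodium channel subunits were close to the detection limit. A count of 0 in a single library allows up to 3 counts, or 0.209 to 0.259 CPM, and covers counting error only. SCNN1A, which encodes the alpha subunit (chromosome 12, 6346843 to 6377730, minus strand), had 86 counts in 11 of the 12 libraries. Its counts were 11 and 13 without ARID1A under the empty vector, 3 and 8 under EWS-FLI1, 0 and 10 in WT under the empty vector and 11 and 10 under EWS-FLI1. In ΔIDR1b they were 6 and 5 under the empty vector and 7 and 2 under EWS-FLI1. No difference between ARID1A states was called, and the narrowest 95% interval ran from -3.08 to 0.78 on the log2 scale. SCNN1B, which encodes the beta subunit (chromosome 16, 23278231 to 23381294, plus strand), had 18 counts and did not pass the low-count filter. They were 6 in a single library without ARID1A and under EWS-FLI1, 2 and 5 in ΔIDR1b under the empty vector and 2 and 3 under EWS-FLI1. The other 7 libraries, among them all 4 of WT, held 0.

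SCNN1G, which encodes the gamma subunit, was counted almost only in libraries under EWS-FLI1. It lies on the plus strand of chromosome 16, from 23182745 to 23216883, next to SCNN1B. Of its 67 counts, all but 2 came from EWS-FLI1 libraries: 0 and 7 without ARID1A, 5 and 17 in WT, and 21 and 15 in ΔIDR1b. The empty-vector counts were 0 and 0 without ARID1A, 0 and 0 in WT, and 0 and 2 in ΔIDR1b. In CPM the EWS-FLI1 libraries reached 0 to 0.605 without ARID1A, 0.376 to 1.29 in WT and 1.04 to 1.49 in ΔIDR1b. The groups under EWS-FLI1 and under the empty vector did not overlap in WT and in ΔIDR1b, and shared a library at 0 without ARID1A. In WT, where the empty-vector group held 0 counts, 3 counts were allowed for that group. Against this allowance the 22 pooled EWS-FLI1 counts of SCNN1G gave a ratio of 7.43. It takes the 22 counts as exact and leaves out the spread between libraries, at 5 and 17, so a smaller rise was not excluded. Without ARID1A all 7 counts came from repeat 2, and repeat 1 was at 0 like both empty-vector libraries, so no fold is given. In ΔIDR1b the ratio was 17.5, from 36 and 2 counts pooled over libraries. Its exact 95% counting interval of 4.50 to 149.7 leaves out the spread between libraries. Between the ARID1A states under EWS-FLI1, the libraries of ΔIDR1b lay above those without ARID1A. SCNN1G passed the low-count filter through its EWS-FLI1 libraries, so no test is given for this difference. Its neighbours USP31 and COG7 were not called for EWS-FLI1, and the 2 antisense genes that overlap 4.92% of its exonic bases had 0 and 3 counts.

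The genes most like SCNN1G over the 12 libraries were CYP4F22 (r = 0.903), CLSTN2 (r = 0.895) and SERTM1 (r = 0.877). CYP4F22 encodes a fatty acid hydroxylase of the skin and CLSTN2 a synaptic cadherin. At 67 counts in all, these values describe sparse data.

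NEDD4L, the ligase that SGK1 phosphorylates, stood higher in both states with ARID1A, and 1 of the 4 differences passed the test. It lies on the plus strand of chromosome 18, from 58044226 to 58401540. Its empty-vector libraries stood at 34.3 and 35.6 CPM without ARID1A, 43.8 and 41.2 CPM in WT, and 44.4 and 43.0 CPM in ΔIDR1b. Under EWS-FLI1 they stood at 36.3 and 34.4 CPM without ARID1A, 42.1 and 43.0 CPM in WT, and 43.1 and 39.0 CPM in ΔIDR1b. All 8 libraries of WT and ΔIDR1b were above all 4 without ARID1A. Under the empty vector the log2 difference was 0.32 for ΔIDR1b against no ARID1A (SE 0.13, adjusted p = 0.0461, edgeR) and 0.28 for WT against no ARID1A (SE 0.13, adjusted p = 0.147, edgeR). Under EWS-FLI1 the differences were 0.22 for ΔIDR1b (SE 0.13, adjusted p = 0.193, edgeR) and 0.27 for WT (SE 0.13, adjusted p = 0.148, edgeR). The single call lay at the threshold: it was lost with DESeq2 (adjusted p = 0.068), with relative log expression size factors (0.0546), without the low-count filter (0.112) and without any library in turn other than WT empty-vector repeat 2 and either WT EWS-FLI1 repeat (0.0555 to 0.212). Between EWS-FLI1 and the empty vector its log2 differences ran from -0.09 to 0.02. The genes most like it were MTF1 (r = 0.970), PROX1 (r = 0.964) and ISG20L2 (r = 0.953).

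NDRG1, the substrate whose phosphorylation is used to read SGK1 activity, was by far the most abundant of the 8 genes. It lies on the minus strand of chromosome 8, from 133237175 to 133302022. The 6 empty-vector libraries stood between 1354 and 1412 CPM. Under EWS-FLI1 they stood at 1397 and 1491 CPM without ARID1A, 1272 and 1522 CPM in WT, and 1024 and 1410 CPM in ΔIDR1b. The spread between repeats under EWS-FLI1 was thus wider than any difference between group means under the empty vector. The fitted log2 difference between ΔIDR1b and no ARID1A under EWS-FLI1 was -0.25 (SE 0.11, adjusted p = 0.0661, edgeR) and that between ΔIDR1b and WT was -0.20 (SE 0.11, adjusted p = 0.191, edgeR). The repeats pair within each vector, and with that pairing as a block both passed, at -0.26 (adjusted p = 0.00426) and -0.21 (adjusted p = 0.0408, edgeR). Both rest on ΔIDR1b repeat 1, at 1024 CPM: without it the differences were -0.03 (adjusted p = 0.862) and 0.01 (adjusted p = 0.963, edgeR). Without ΔIDR1b repeat 2 they were -0.50 (adjusted p = 0.000481) and -0.45 (adjusted p = 0.00391, edgeR). The first also passed without the low-count filter (adjusted p = 0.0162), with only the groups compared in the fit (adjusted p = 0.0204, both by edgeR) and without either WT EWS-FLI1 library (adjusted p = 0.0142 and 0.0141, edgeR), and the second without WT repeat 1 (adjusted p = 0.0198, edgeR). The transcript level says nothing of NDRG1 phosphorylation, which was not measured.

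Per kilobase of exon, NDRG1 was the highest of the 8 genes at a mean of 114 CPM per kilobase over the 12 libraries. SGK1 followed at 1.42, NEDD4L at 1.17, SGK2 at 0.979 and SGK3 at 0.807. The channel subunits SCNN1G (0.118), SCNN1A (0.0922) and SCNN1B (0.0295) came last. The empty-vector group means of SGK1 per kilobase, 0.496 to 0.877, were below those of NEDD4L, 1.02 to 1.28, in every state. Under EWS-FLI1 the order turned, with 1.63 to 2.72 for SGK1 and 1.04 to 1.25 for NEDD4L. Below NDRG1, the ranges over the 12 libraries overlapped between neighbours in this order, other than between SGK3 (0.562 to 1.01) and SCNN1G (0 to 0.427). Among the kinases in empty-vector cells, SGK2 overlapped with both others without ARID1A, and all 3 overlapped in WT. In ΔIDR1b all libraries of SGK1, at 0.429 and 0.563, were below those of SGK3, at 0.653 and 0.796, and of SGK2, at 1.14 and 1.49. The exon length of NEDD4L sums all annotated exons (34097 bases), and a transcript that uses fewer of them has a higher level per kilobase than given here.

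**Figure D3:**
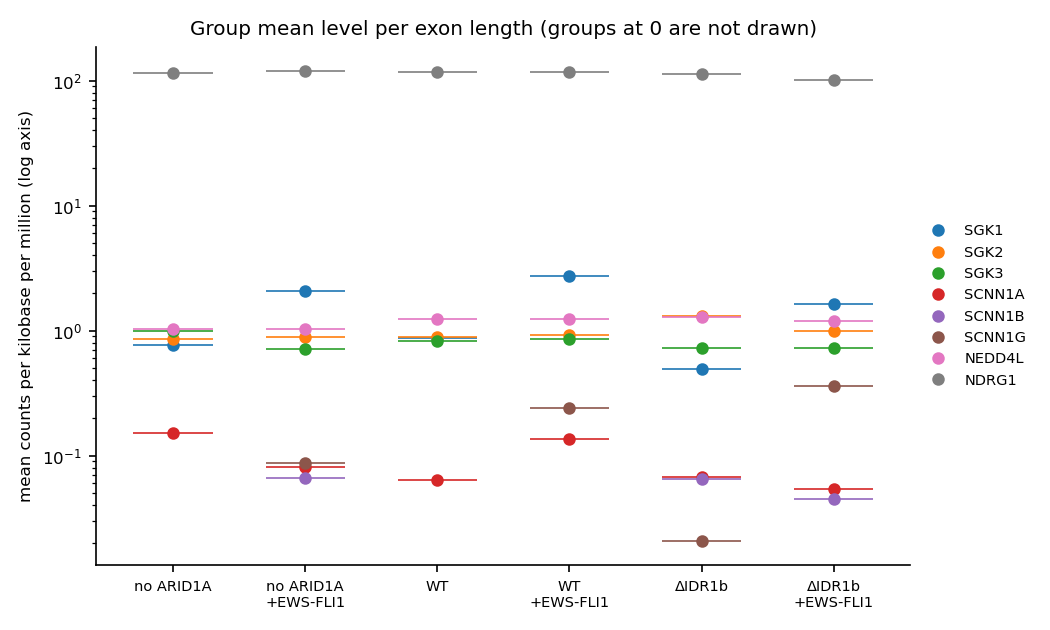
Group mean of each gene in CPM per kilobase of exon (vertical axis, log scale) in the 6 groups, each over 2 libraries. SGK1 lies below NEDD4L in the 3 groups under the empty vector and second to NDRG1 in the 3 groups under EWS-FLI1, and groups at 0 are not drawn.

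Across the ARID1A comparisons, the 7 members tested gave few calls. SCNN1G is among them, and could not be called between no ARID1A and WT under the empty vector, where both groups held 0 counts. Under the empty vector 0 of 7 were called for WT against no ARID1A, 2 of 7 for ΔIDR1b against no ARID1A (NEDD4L higher, SGK1 lower) and 1 of 7 for ΔIDR1b against WT (SGK1 lower). The shares of all genes called were 11.7%, 33.3% and 24.5%. Under EWS-FLI1 the counts were 0, 0 and 1 (SGK1 lower), and the shares 18.1%, 35.9% and 18.6%. For WT against no ARID1A, 1 member under the empty vector and 2 under EWS-FLI1 had an unadjusted p under 0.05 by edgeR. For ΔIDR1b against no ARID1A under EWS-FLI1 it was 1, and DESeq2 called 0 in these 3 comparisons.

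Other genes of the pathway were taken from lists. None of the 105 list genes tested was called for EWS-FLI1 in any single state, where 1, 8 and 6 of them had an unadjusted p under 0.05 in edgeR's test without ARID1A, in WT and in ΔIDR1b, and DESeq2 called 0. Averaged over the states, 1 list gene was called (0.952%, beside 0.466% of all genes). It was DUSP1, a phosphatase gene induced by glucocorticoids, at -0.25 (SE 0.06, adjusted p = 0.0291, edgeR). With the repeats as a block within each vector 5 list genes were called, and none was without any 1 of 8 libraries (the 4 without ARID1A, WT empty-vector repeat 1, both ΔIDR1b empty-vector repeats and ΔIDR1b EWS-FLI1 repeat 1). The count was 2 without either WT EWS-FLI1 repeat or ΔIDR1b EWS-FLI1 repeat 2.

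The corticosteroid list held the receptors, genes they induce, FKBP4 and the enzyme genes HSD11B1 and HSD11B2, and 13 of its genes were tested. For EWS-FLI1 its median log2 difference was -0.06 averaged over states, beside -0.002 for all genes, and 12 of 13 were not called. Neither receptor was called: NR3C1, the glucocorticoid receptor gene, had a log2 difference of -0.14 (adjusted p = 0.688) and NR3C2, the mineralocorticoid receptor gene, one of -0.03 (adjusted p = 0.975, edgeR). Against no ARID1A under the empty vector, ΔIDR1b had 5 lower and 2 higher of 13 (53.8%, beside 33.3% of all genes called). Lower were PER1, a circadian repressor (-1.32), TSC22D3, the glucocorticoid-induced leucine zipper gene (-1.22), KLF9 (-0.73), DUSP1 (-0.65) and ERRFI1, an inhibitor of EGF receptors (-0.35). Higher were TFCP2L1, a factor of collecting duct cells (1.35), and HSD11B2, which inactivates cortisol (0.83). TSC22D3 fell from a mean of 157 CPM (SD 7.88) without ARID1A to 67.4 CPM (SD 6.08), and PER1 from 292 CPM (SD 11.6) to 117 CPM (SD 4.59). The list's median was -0.11, beside 0.004 for all genes.

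Under EWS-FLI1, ΔIDR1b against no ARID1A had 4 lower and 1 higher of the 13 corticosteroid genes (38.5%), near the 35.9% called of all genes. Against WT, ΔIDR1b had 6 lower and 1 higher of 13 under the empty vector (53.8%, beside 24.5% of all genes) and 6 lower under EWS-FLI1 (46.2%, beside 18.6%). ERRFI1 was the lowest of them, at -1.54 (SE 0.12) and -1.28 (SE 0.11), and TSC22D3, PER1, DUSP1, KLF9 and FKBP4 were lower in both. SGK1 was called lower in these same 2 comparisons. The median was -0.39 under the empty vector and -0.29 under EWS-FLI1, beside 0.01 for all genes in each.

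The list of kinases and regulators that activate SGK1 had 18 genes, all tested. None was called for EWS-FLI1 averaged over states. For ΔIDR1b against no ARID1A, 6 were higher and 4 lower with each vector (55.6%, beside 33.3% of all genes under the empty vector and 35.9% under EWS-FLI1). PDPK1, the kinase PDK1 that phosphorylates SGK1, was higher by 0.57 (SE 0.13, adjusted p = 0.000667) under the empty vector and by 0.53 under EWS-FLI1 (SE 0.13, adjusted p = 0.0015, edgeR). MTOR was higher by 0.44 and 0.54, while RICTOR, the subunit that defines mTORC2, was lower, at -0.36 and -0.48. For WT against no ARID1A, 0 of 18 were called under the empty vector, beside 11.7% of all genes. Under EWS-FLI1 3 were higher (PDPK1, PIK3CB and PIK3CD), and that 16.7% is near the 18.1% of all genes.

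The list of ligases related to NEDD4L, their adaptors and binding proteins had 20 genes tested, and none was called for EWS-FLI1. For ΔIDR1b against no ARID1A, 6 were higher and 2 lower with each vector. That share of 40% is near those of all genes, 33.3% and 35.9%. USP2, a deubiquitinase that acts on the sodium channel, was higher by 1.15 (SE 0.17, adjusted p = 1.61e-06) under the empty vector and by 1.27 (SE 0.17, adjusted p = 2.62e-07, edgeR) under EWS-FLI1. SMURF1 was higher by 0.86 and 0.65, and NDFIP1, an adaptor of NEDD4 ligases, lower, at -0.29 and -0.30. Against no ARID1A, 4 of 20 were higher in WT under the empty vector (20%, beside 11.7% of all genes) and 6 under EWS-FLI1 (30%, beside 18.1%), and USP2 was among both (1.04 and 1.12).

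The last list held 14 other NDRG and hypoxia-induced genes, all tested. None was called for EWS-FLI1. ΔIDR1b against no ARID1A had 9 lower and 1 higher (CA9) with each vector (71.4%, beside 33.3% and 35.9% of all genes). The median was -0.615 under the empty vector, beside 0.004 for all genes. ANKRD37 was at -3.75 on the log2 scale (SE 0.15) and went from 161 CPM (SD 3.74) to 11.9 CPM (SD 0.731). ADM was at -2.57 (SE 0.15) and VEGFA, the angiogenic growth factor gene, at -1.58 (SE 0.12), and BNIP3, EGLN1, EGLN3, PDK1, P4HA1 and PGK1 were the other 6 lower genes. The pyruvate dehydrogenase kinase gene PDK1 is not the kinase PDPK1 above. In WT 7 of 14 were lower with each vector (50%, beside 11.7% and 18.1% of all genes). NDRG1, known as hypoxia-induced too, differed by -0.01 between ΔIDR1b and no ARID1A under the empty vector (95% interval -0.23 to 0.20). The interval of P4HA1 (-0.40, -0.61 to -0.18) overlaps it. Under EWS-FLI1 NDRG1 was at -0.25 (-0.46 to -0.03), which did not pass and rested on ΔIDR1b repeat 1. PGK1, called lower, was at -0.24 there.

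**Figure D4:**
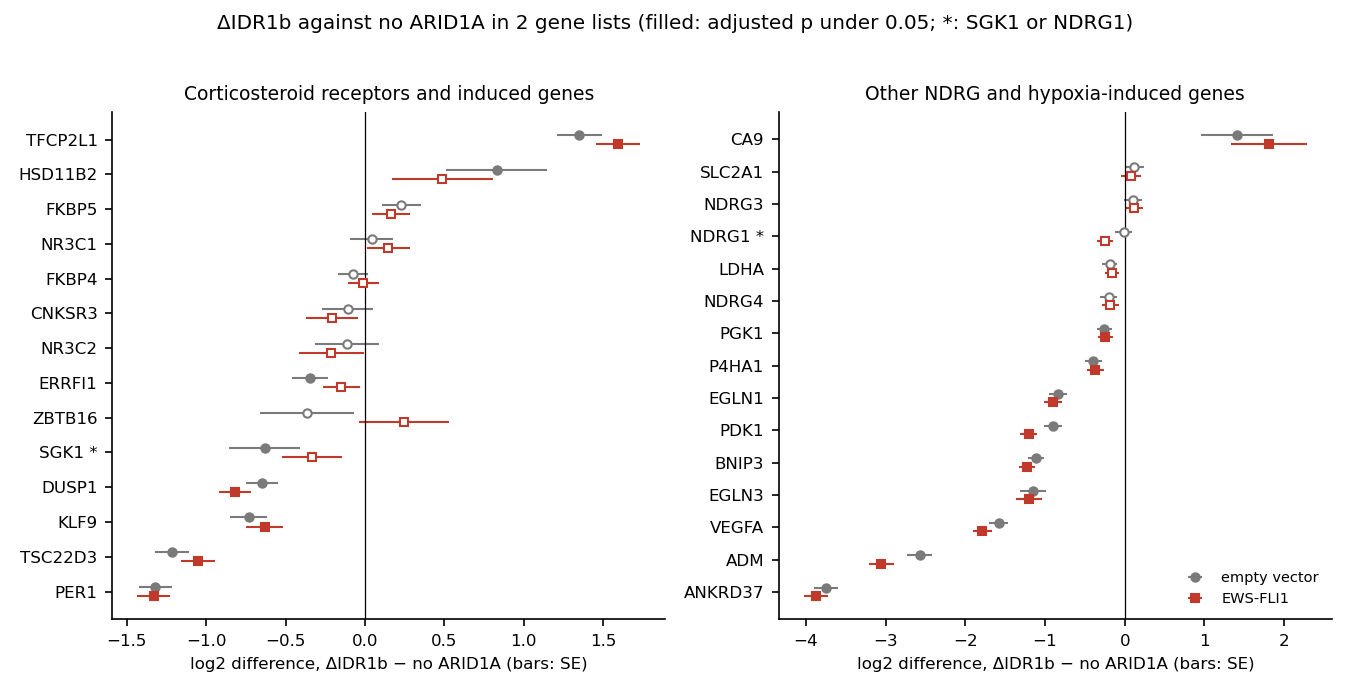
Log2 difference between ΔIDR1b and no ARID1A (horizontal axes; bars, SE) under the empty vector (grey circles) and under EWS-FLI1 (red squares) for the corticosteroid genes with SGK1 and for the other NDRG and hypoxia-induced genes with NDRG1, filled where the adjusted p was under 0.05. PER1, TSC22D3, KLF9 and DUSP1 lie left of SGK1 (-0.63 under the empty vector). NDRG1 lies at -0.01 under the empty vector and at -0.25 under EWS-FLI1, and ANKRD37, ADM and VEGFA lie at -1.58 or lower.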

How the data were processed

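PolyA RNA of 12 libraries in 6 groups of 2 was analysed. Per the file headers, the authors counted fragments per gene name with featureCounts 2.0.1 over exons of GENCODE release 41 on GRCh38, patch 13, with both ends aligned. No strand option was set, so reads of a gene and of an antisense partner cannot be told apart, and fragments over several genes were left out. The deposited values are raw counts with no normalization. STAR, SAMtools and edgeR are named in the submitters' processing notes, with versions not given in the sources used here.

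Genes were kept by filterByExpr (minimum count 10, minimum total 15), which left 20377. A quasi-likelihood model with 1 mean per group, scaled with TMM (trimmed mean of M-values), was fitted to all 12 libraries (edgeR 4.0.16, limma 3.58.1, R 4.3.3). Common biological variation was 10.1%. Each of 13 contrasts was tested 2-sided, with Benjamini-Hochberg adjustment over all genes tested and a threshold of 0.05. The SE is the log2 difference divided by the square root of F. The procedure was tested on simulated data.

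The members and lists were chosen with earlier results of these data known. Named genes were the 8 members, ARID1A and FLI1, the 3 genes with the highest r to each member (mean of at least 1 CPM, log2 CPM with a prior count of 2), the nearest tested gene on either side, and called list genes, the 3 with the smallest p of each direction where more were called. Further called list genes were named after their values were seen, and some genes that the rule names are not reported here.

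Equal repeat numbers deviated together within each vector: over 10695 genes of at least 10 CPM, r was 0.104 to 0.194 for the 3 pairs of groups with the empty vector and 0.153 to 0.412 for the 3 with EWS-FLI1. It was -0.223 to -0.00785 for the 9 pairs with different vectors. The pairing comes from the values, not the labels, and a fit with that block was an alternative. Others were relative log expression or upper-quartile factors, no filter, DESeq2 1.42.0, only the groups compared, a mean of at least 1 CPM, a block over all groups, and each library left out. Protein sequences were not used here.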

Additional observations from a re-analysis of the deposited data

How the results depend on the processing

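Depth limited the channel subunits most, since 3 counts came to 0.209 to 0.259 CPM. Members called for ΔIDR1b against no ARID1A with the empty vector went from 2 to 1 with relative log expression factors, without the low-count filter or with DESeq2, and to 0 to 2 with single libraries left out. With EWS-FLI1 they went from 0 to 1 without the filter, to 2 with only the groups compared (NDRG1 and SCNN1G), to 1 with either replicate block, and to 0 to 1 with single libraries left out. For ΔIDR1b against WT the range was 0 to 1 with the empty vector and 0 to 2 with EWS-FLI1, where the replicate block within each vector gave 2. That block changed no other call of a member than those of NDRG1.

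List genes called for EWS-FLI1 on average went from 1 to 2 without the filter, to 5 with the replicate block within each vector, and to 0 to 2 with single libraries left out. For WT against no ARID1A, 16 were called with the empty vector (10 to 24 with single libraries left out, lowest without WT repeat 1). With EWS-FLI1 it was 29, 14 with only the groups compared, and 14 to 29 with single libraries left out (17 without no-ARID1A repeat 1, 14 without repeat 2). For ΔIDR1b against no ARID1A the counts were 50 (28 to 54; 28 without either no-ARID1A library or ΔIDR1b repeat 2, 32 without ΔIDR1b repeat 1) and 47 (28 to 49, lowest without no-ARID1A repeat 2). For ΔIDR1b against WT they were 38 (21 to 44; 21 to 25 without any of the 4 libraries compared) and 24 (13 to 31, lowest without ΔIDR1b repeat 1), and 11 with only the groups compared. Fewer libraries carry the spread in these fits.

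Signs changed with single libraries left out for SGK1 in WT against no ARID1A under the empty vector (range -0.079 to 0.43) and in its interactions (-0.023 to 0.50 for WT against no ARID1A, -0.20 to 0.32 for ΔIDR1b against WT, with -0.10, -0.03 and -0.03 among them), and for NDRG1 in ΔIDR1b against WT under EWS-FLI1 (-0.45 to 0.013). None of the reversed values passed the threshold. Of 46 further differences of members, none was called, 24 changed sign in some alternative, and 2 of 886 fits called a difference, both for SCNN1G, which is at counts of 0 to 21 and passed the filter through its EWS-FLI1 libraries.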

Other observations

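Further lists around the channel and its kinase were counted in the same fit, and none of their genes was called for EWS-FLI1 in a single state or on average. The counts below are for edgeR's adjusted p under 0.05.

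Of the other members of the channel's DEG/ENaC family, 4 of 6 were tested. SCNN1D, the delta subunit gene, was lower than without ARID1A, in WT at -0.62 (SE 0.16, adjusted p = 0.00729) and in ΔIDR1b at -0.59 (SE 0.15, adjusted p = 0.0032) under the empty vector, both by edgeR. With EWS-FLI1 the differences were -0.71 and -0.57. The differences of SCNN1A, at 86 counts in all, were -1.24 in WT and -1.15 in ΔIDR1b under the empty vector and were not called. Their 95% intervals (-3.20 to 0.71 and -3.08 to 0.78) cover the values of SCNN1D. ASIC3, an acid-sensing channel gene, was lower in WT than without ARID1A with EWS-FLI1 (-0.60, SE 0.22, adjusted p = 0.0482, edgeR).

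Of 11 genes of proteases that cleave the channel and their inhibitors, 6 were tested. For ΔIDR1b against no ARID1A, 2 were higher with each vector. That 33.3% is near the shares of all genes, 33.3% under the empty vector and 35.9% with EWS-FLI1. They were FURIN and PRSS8 under the empty vector, and FURIN and SERPINE2 with EWS-FLI1. PRSS8, at 208 counts in all, was higher by 2.08 (SE 0.69, adjusted p = 0.0196, edgeR) under the empty vector. FURIN, which cleaves the alpha and gamma subunits, was higher in ΔIDR1b than without ARID1A by 0.43 (SE 0.11, adjusted p = 0.00261) under the empty vector and by 0.46 (SE 0.11, adjusted p = 0.00149, edgeR) with EWS-FLI1.

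Among other SGK1 substrates, 11 were tested, and ΔIDR1b against no ARID1A had 3 higher and 2 lower under the empty vector (45.5%, beside 33.3% of all genes called). Under EWS-FLI1 it had 3 higher and 1 lower, and that 36.4% is near the 35.9% of all genes. WNK4, a kinase that regulates salt transport in the distal nephron, was higher by 1.68 (SE 0.39, adjusted p = 0.001, edgeR) under the empty vector and did not pass under EWS-FLI1 (0.91, SE 0.40, adjusted p = 0.0755, edgeR). FOXO3, a transcription factor that SGK1 and AKT keep out of the nucleus, was lower under the empty vector, at -0.44 (SE 0.10, adjusted p = 0.000935, edgeR), and did not pass under EWS-FLI1 (-0.25, SE 0.10, adjusted p = 0.0556, edgeR). Of 8 related AGC kinases, 3 (37.5%) were higher under the empty vector, near the share of all genes, led by RPS6KA3 (0.68, SE 0.11, adjusted p = 1.61e-05, edgeR).

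Of 21 distal nephron transport genes, 11 were tested, and 36.4% of these were called for ΔIDR1b against no ARID1A under the empty vector, near the 33.3% of all genes. The sodium pump subunit ATP1B1 (-0.75, SE 0.13) and the exchanger SLC9A3 (-0.64, SE 0.23) were among those lower in ΔIDR1b than without ARID1A under the empty vector.

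The genes most like SGK2 over the 12 libraries were MVB12B (r = 0.918), FOXN3 (r = 0.887) and NAIF1 (r = 0.872), and those most like SGK3 were SOX2 (r = 0.844), PKD1-AS1 (r = 0.816) and STAG3L3 (r = 0.808). For SCNN1A, at 86 counts in all, they were SPATA17 (r = 0.908), HNRNPA1P10 (r = 0.835) and SCAPER (r = 0.812).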
